A study of Mus musculus with 6 samples.

Results

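The SLC25 family, the solute carriers of the mitochondrial inner membrane, was examined in macrophages with and without the citrate-cleaving enzyme Acly. A gene was included when its symbol was Slc25a followed by a number and its summed count over the 6 libraries was at least 60, and the citrate carrier Slc25a1 was set aside. Of the 47 Slc25a symbols in the table of 24562 genes, 35 met these conditions and 11 had fewer counts. The summed count chose the members, so their expression levels are given as a description. It did not use the difference between the genotypes. The members nearest to the limit were Slc25a53 with 74 and Slc25a35 with 173 counts, and just below it lay Slc25a47 with 25 and Slc25a27 with 24 counts.

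The inner mitochondrial membrane is closed to most metabolites, and SLC25 proteins are the nuclear-encoded carriers that exchange them between matrix and cytosol. They move ADP and ATP, phosphate, di- and tricarboxylates, amino acids, acylcarnitines, nucleotides, cofactors and iron, and a few members work in other membranes. The citrate that Acly cleaves into acetyl-CoA and oxaloacetate in the cytosol leaves the mitochondrion through Slc25a1.

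Bone marrow-derived macrophages (BMDMs) of 2 genotypes were compared, all untreated (naive). The knockouts, labelled KO, were AclyM-KO BMDMs from Acly fl/fl mice with Cre under the Lyz2 promoter, which is active in the myeloid lineage. The controls are labelled WT, and the controls the study describes for its mice were Acly fl/fl littermates without Cre. Both were grown from bone marrow in medium with L929-conditioned medium. Each genotype had 3 RNA-seq libraries, which the study's legends describe as technical replicates of cells pooled from 3 mice. The p-values below therefore measure technical spread between libraries and not the variation between mice.

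The authors deposited raw read counts per RefSeq transcript on the mouse genome mm10, and the transcript with the highest total stood for each gene. Total counts over all transcripts lay between 19327459 and 23582992 in control libraries and between 19797218 and 44507233 in AclyM-KO libraries, with AclyM-KO replicate 2 the deepest. That library also stood apart from the other AclyM-KO libraries in its composition (chi-square per degree of freedom 22.8 and 24.4, against 8.59 between replicates 1 and 3). The targeted gene was lower in every AclyM-KO library, with 93.3 to 98.9 CPM (read counts scaled to library size by edgeR's TMM method) for Acly against 220.4 to 235.8 CPM in control.

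Levels of the carriers were compared per length, as RPKM, the CPM divided by the length of the transcript in kilobases. They spanned an 811-fold range, from 0.274 RPKM for Slc25a53, a carrier whose substrate is not settled, to 222.6 RPKM for Slc25a3, which imports the phosphate used for ATP synthesis. Slc25a3 measured 218.7, 208.9 and 218.5 RPKM in control libraries and 231.6, 234.0 and 223.9 RPKM in AclyM-KO libraries. After it came the ADP/ATP carriers Slc25a5 at 102.5 and Slc25a4 at 64.4 RPKM, the oxoglutarate-malate carrier Slc25a11 at 64.0 RPKM and Slc25a39, which imports glutathione, at 59.8 RPKM (means over 6 libraries). The phosphate carrier and the ADP/ATP carrier Slc25a5 thus headed the order, while Slc25a4 overlapped with Slc25a11 and Slc25a11 with Slc25a39. The first 2 carriers made up 39.9% and the first 5 made up 63.0% of the summed RPKM of the 35 members, whose median level of 8.99 RPKM lay close to the 9.64 RPKM of all genes tested.

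**Figure D1:**
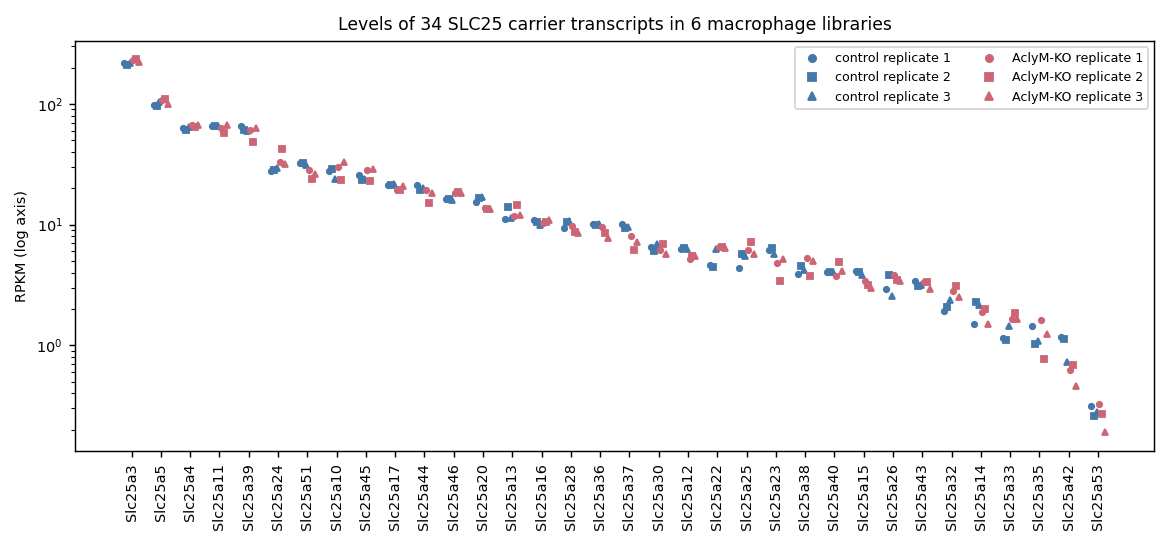
RPKM (log axis) of 34 of the 35 carriers in the 6 libraries, ordered by mean level, with control in blue and AclyM-KO in red and 1 marker shape for each replicate. Slc25a3 at 222.6 and Slc25a5 at 102.5 RPKM on average stand above the rest, and most neighbouring carriers further down overlap, although Slc25a53 lies below Slc25a42 in every library.

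Most neighbours in this order had overlapping ranges. Of the 34 neighbouring pairs, 28 overlapped in their ranges over the 6 libraries, and in 6 every value of the one carrier was above every value of the other. The separate pairs were Slc25a3 above Slc25a5, Slc25a5 above Slc25a4, Slc25a39 above Slc25a24, Slc25a45 above Slc25a17, Slc25a13 above Slc25a16 and Slc25a42 above Slc25a53. In 3 of the overlapping pairs the order was still the same within each library, with Slc25a10 above Slc25a45, Slc25a17 above Slc25a44 and Slc25a43 above Slc25a32. Symbols under the count limit included Slc25a31, the ADP/ATP carrier of germ cells, with 16 counts over all libraries, and Slc25a21, an oxodicarboxylate carrier, with 0.

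The comparison of AclyM-KO with control asks which carriers differ in expression when Acly is lost in unstimulated macrophages. Of the 35 carriers, 1 was higher and 2 were lower in AclyM-KO BMDMs (edgeR's quasi-likelihood test, Benjamini-Hochberg adjusted p of 0.05 or less over 11470 genes). Slc25a24 rose, and Slc25a37 and Slc25a51 fell. These 3 were 8.57% of the carriers, beside 12.3% of all genes tested, with 6.7% of all genes higher and 5.65% lower. All 35 carriers passed the filter on low counts.

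The differences were small in size in most of the family. The log2 fold changes ran from -0.73 (Slc25a42) to 0.50 (Slc25a33) with a median of -0.05, beside 0.00 for all genes. The median absolute change was 0.13 in the family and 0.15 in all genes, and 34 of the 35 carriers (97.1%) changed by less than 0.5 on the log2 scale, as did 89.3% of all genes. The 95% confidence interval lay inside -1 to 1 for 34 carriers, the exception being Slc25a42, and inside -0.5 to 0.5 for 22. The summed CPM of the carriers was 1774, 1742 and 1754 in control and 1798, 1732 and 1759 in AclyM-KO libraries, so the groups overlapped. In such bulk RNA, fewer cells that express a gene and less RNA of it per cell cannot be told apart.

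Libraries of the 2 genotypes did not overlap in 18 carriers (51.4%), beside 32.8% of all genes tested. AclyM-KO lay above control in 8 of them (22.9%, against 16.3% of all genes) and below control in 10 (28.6%, against 16.6%). At an unadjusted p under 0.05, 6 carriers were higher (17.1%, against 13.9%) and 9 lower (25.7%, against 13.3%).

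**Figure D2:**
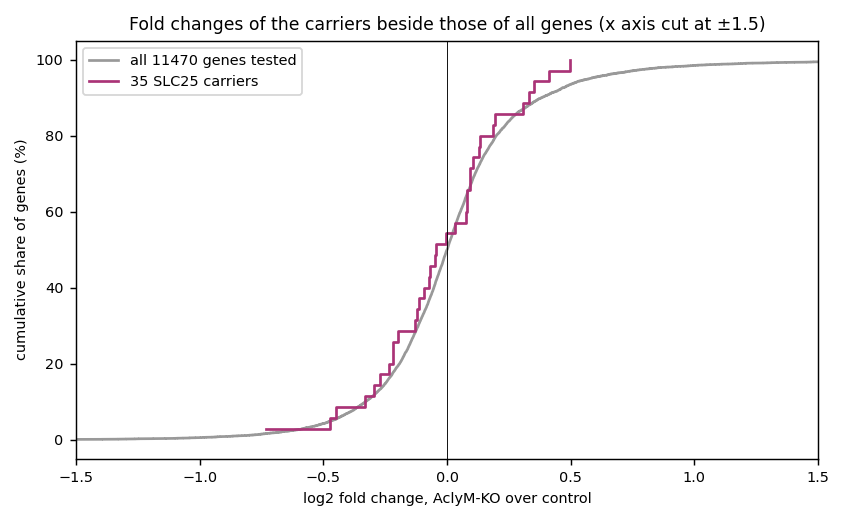
Cumulative share of genes (%) against the log2 fold change of AclyM-KO over control, for the 35 carriers (purple steps) and all 11470 genes tested (grey line). The carriers end at -0.73 and 0.50, while the grey line has tails on both sides.

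Slc25a24, which exchanges ATP-Mg for phosphate under control of calcium and so sets the matrix adenine nucleotide pool, was the carrier that rose. Its transcript NM_172685 lies on the plus strand of chromosome 3 (109123149 to 109168457, 10 exons, mm10). Counts were 1046, 1306 and 1110 in control and 1299, 3812 and 1261 in AclyM-KO libraries, or 95.1, 97.6 and 100.1 CPM against 113.1, 144.0 and 110.0 CPM. All AclyM-KO libraries were above all control libraries, and AclyM-KO replicate 2 was the highest. This was a log2 fold change of 0.33 with a standard error of 0.098, and the adjusted p of 0.0480 in edgeR lay just inside the threshold. Without AclyM-KO replicate 2 it was 0.19 (adjusted p = 0.0236), and the call was lost when that library was thinned to the depth of the others (adjusted p just above the threshold), when all transcripts of a gene were summed (0.0654) and without control replicate 1, 2 or 3 (0.169, 0.147 and 0.123).

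Slc25a37 (mitoferrin-1), which carries iron into the matrix for haem and iron-sulphur clusters, fell. NM_026331 lies on the minus strand of chromosome 14 (69241848 to 69285112, 4 exons). Counts were 466, 522 and 441 in control and 388, 680 and 342 in AclyM-KO libraries, which gave 42.4, 39.0 and 39.8 CPM against 33.8, 25.7 and 29.8 CPM. Each AclyM-KO library was below each control library, with replicate 2 the lowest. In log2 units the difference was -0.45 ± 0.107 (standard error), with an adjusted p of 0.0186 in edgeR, and without AclyM-KO replicate 2 it was -0.34 (adjusted p = 0.00889). The call was lost without control replicate 1, 2 or 3 (adjusted p 0.0946, 0.0598 and 0.0705). On the opposite strand, the genes Gm27223 and Gm31748 cover 2.20% and 9.13% of its exon bases. Libraries were strand-specific and were counted at the default settings of the tool, whose handling of strand is not described in the sources used here. In all, 10 carriers share exon bases with another annotated gene, among them Slc25a33 (14.9%), Slc25a25 (11.6%), Slc25a10 (11.3%) and Slc25a46 (8.56%), each with a gene on the opposite strand.

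Slc25a51, the carrier that brings NAD+ into mitochondria, also fell. It stood at rank 7 by level with 29.1 RPKM, and NM_001009949 lies on the minus strand of chromosome 4 (45395923 to 45408766, 3 exons). The miRNA gene Gm25692 lies on the same strand and covers 2.82% of its exon bases. Its CPM were 145.1, 143.9 and 137.9 in control and 125.6, 106.3 and 116.4 in AclyM-KO libraries, from counts of 1596, 1925 and 1529 against 1443, 2814 and 1334. The groups did not overlap, and AclyM-KO replicate 2 was again the lowest. This corresponded to -0.30 ± 0.075 in log2 units (standard error, adjusted p of 0.0251 in edgeR), with values between -0.36 and -0.23 when single libraries were left out. The adjusted p rose above the threshold without AclyM-KO replicate 3 (0.0606) and without control replicate 1, 2 or 3 (0.115, 0.106 and 0.0792).

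**Figure D3:**
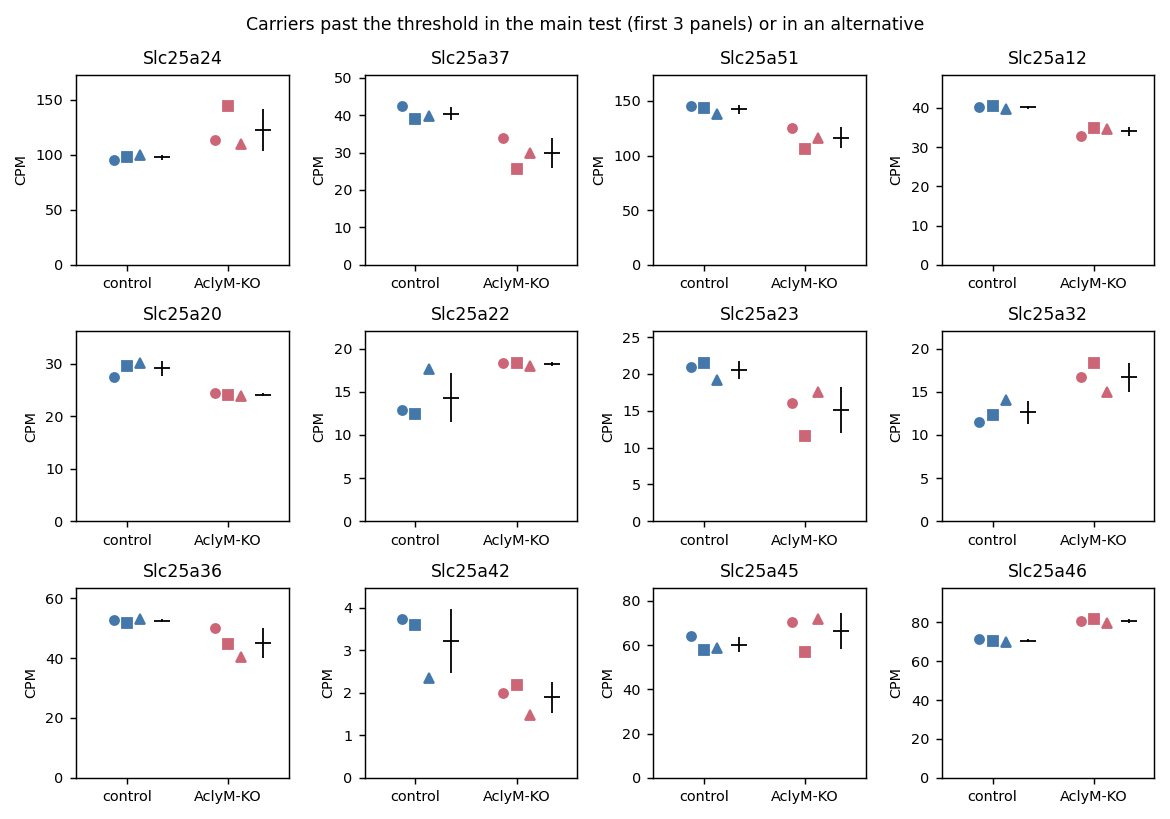
CPM (axes from 0) in each library for the 3 carriers past the threshold (first 3 panels) and the 9 that passed it only under an alternative, with circle, square and triangle for replicates 1, 2 and 3 and a black cross for mean ± SD. In the first 3 panels no AclyM-KO point overlaps control, and the AclyM-KO square is the one farthest from control.

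By role, the adenine nucleotide and phosphate carriers were 1 higher, 0 lower and 5 not past the threshold, with log2 fold changes between -0.47 and 0.33. Beside Slc25a24, the ATP-Mg/phosphate carrier Slc25a23 measured 20.9, 21.5 and 19.1 CPM in control and 16.1, 11.6 and 17.5 CPM in AclyM-KO libraries (log2 fold change -0.47, standard error 0.150, adjusted p = 0.0606). Its groups did not overlap, and replicate 2 of AclyM-KO was the lowest, without which the log2 fold change was -0.29. DESeq2, the package the study used (adjusted p = 0.0457), and limma-voom (0.0476) placed it past the threshold. Slc25a25, the third of these calcium-regulated carriers, gave 0.31 on the log2 scale (adjusted p = 0.161), and 0.19 without AclyM-KO replicate 2 or without control replicate 1. Slc25a3, Slc25a4 and Slc25a5 had values of 0.09, 0.08 and 0.11, with 95% intervals inside -0.07 to 0.26.

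Of the 4 dicarboxylate and malate-aspartate shuttle carriers, 0 passed the threshold in edgeR or DESeq2 and 1 did in limma-voom (Slc25a12). It was also the 1 with an unadjusted p under 0.05, beside 27.3% of all genes tested. Slc25a12 and Slc25a13 exchange aspartate for glutamate in that shuttle. Slc25a12 measured 40.2, 40.4 and 39.7 CPM in control and 32.7, 34.9 and 34.6 CPM in AclyM-KO libraries, without overlap (log2 fold change -0.23, adjusted p = 0.0840). Slc25a13 had overlapping groups and a log2 fold change of 0.08. Slc25a10, the dicarboxylate carrier, and Slc25a11 gave 0.08 and -0.07, and without AclyM-KO replicate 2 they gave 0.22 and -0.01.

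Among amino acid carriers, 0 of 4 passed in edgeR, DESeq2 or limma-voom, with log2 fold changes between -0.33 and 0.35. An unadjusted p under 0.05 was found for 3 of the 4, beside 27.3% of all genes tested. The glutamate carrier Slc25a22 measured 12.9, 12.5 and 17.6 CPM in control and 18.4, 18.4 and 18.0 CPM in AclyM-KO libraries (log2 fold change 0.35, adjusted p = 0.120). Control replicate 3 was close to the AclyM-KO level, and without it the log2 fold change was 0.52 (adjusted p = 0.0450). The ornithine carrier Slc25a15 (-0.33) and the branched-chain amino acid carrier Slc25a44 (-0.22) lay below control in every AclyM-KO library, and Slc25a38, which brings in glycine for haem synthesis, had overlapping groups (0.13). Without AclyM-KO replicate 2 the value of Slc25a44 was -0.11 and that of Slc25a38 was 0.29, and without AclyM-KO replicate 1 that of Slc25a38 was 0.03. The acylcarnitine carrier Slc25a20, needed for the entry of fatty acids into beta-oxidation, measured 27.6, 29.7 and 30.2 CPM in control and 24.5, 24.1 and 23.8 CPM in AclyM-KO libraries (log2 fold change -0.27, adjusted p = 0.0713). These groups did not overlap, and limma-voom placed Slc25a20 past the threshold.

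The 9 cofactor and nucleotide carriers were 0 higher, 1 lower (Slc25a51) and 8 not past the threshold in edgeR and DESeq2, while limma-voom called 3 lower (Slc25a36, Slc25a42 and Slc25a51), and they held both ends of the family's range. Slc25a42, a carrier of coenzyme A, measured 3.73, 3.59 and 2.35 CPM in control and 2.002, 2.19 and 1.48 CPM in AclyM-KO libraries, the largest difference of the family on 17 to 58 counts per library (log2 fold change -0.73, standard error 0.260, adjusted p = 0.0905). Slc25a33, which imports pyrimidine nucleotides, measured 2.18, 2.09 and 2.71 CPM against 3.13, 3.48 and 3.14 CPM on 24 to 92 counts (0.50, adjusted p = 0.160). In both, the groups did not overlap.

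The folate and FAD carrier Slc25a32 measured 11.5, 12.3 and 14.1 CPM in control and 16.7, 18.4 and 14.9 CPM in AclyM-KO libraries (log2 fold change 0.41, adjusted p = 0.0571). Slc25a36, the other pyrimidine nucleotide carrier, measured 52.6, 51.9 and 53.0 CPM against 50.1, 44.7 and 40.3 CPM (-0.22, adjusted p = 0.135). The spread of Slc25a36 was wider in AclyM-KO (SD 4.88 CPM, n = 3) than in control (SD 0.553 CPM, n = 3). The S-adenosylmethionine carrier Slc25a26, the peroxisomal carrier Slc25a17 and Slc25a16 had log2 fold changes between -0.11 and 0.19, and the value of Slc25a26 ranged from 0.07 without control replicate 3 to 0.37 without control replicate 2.

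Of the 4 iron and glutathione carriers, 1 was lower (Slc25a37) and 3 did not pass, with a median log2 fold change of -0.16. Slc25a28 (mitoferrin-2), the second iron carrier, gave -0.20 with overlapping groups, Slc25a39 gave -0.12 and its relative Slc25a40 gave 0.09. Without AclyM-KO replicate 2 these were -0.01 for Slc25a39 and -0.04 for Slc25a40. Slc25a46, which sits in the outer membrane and acts in mitochondrial shape and fission, measured 71.3, 70.7 and 69.8 CPM in control and 80.5, 81.6 and 79.8 CPM in AclyM-KO libraries (0.19, adjusted p = 0.0825). These groups were tight and separate, and limma-voom placed Slc25a46 past the threshold. The uncoupling-protein-like Slc25a14 and Slc25a30 gave -0.13 and -0.05, with Slc25a14 at -0.29 without control replicate 1 and at -0.01 without control replicate 2, and the 4 members whose role is not settled lay between -0.09 and 0.13. Among these 4, Slc25a45 passed the threshold without AclyM-KO replicate 2, with 0.24 (adjusted p = 0.0174) in place of 0.13 (adjusted p = 0.423), and with limma-voom, while without AclyM-KO replicate 3 it gave 0.07 (adjusted p = 0.726).

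**Figure D4:**
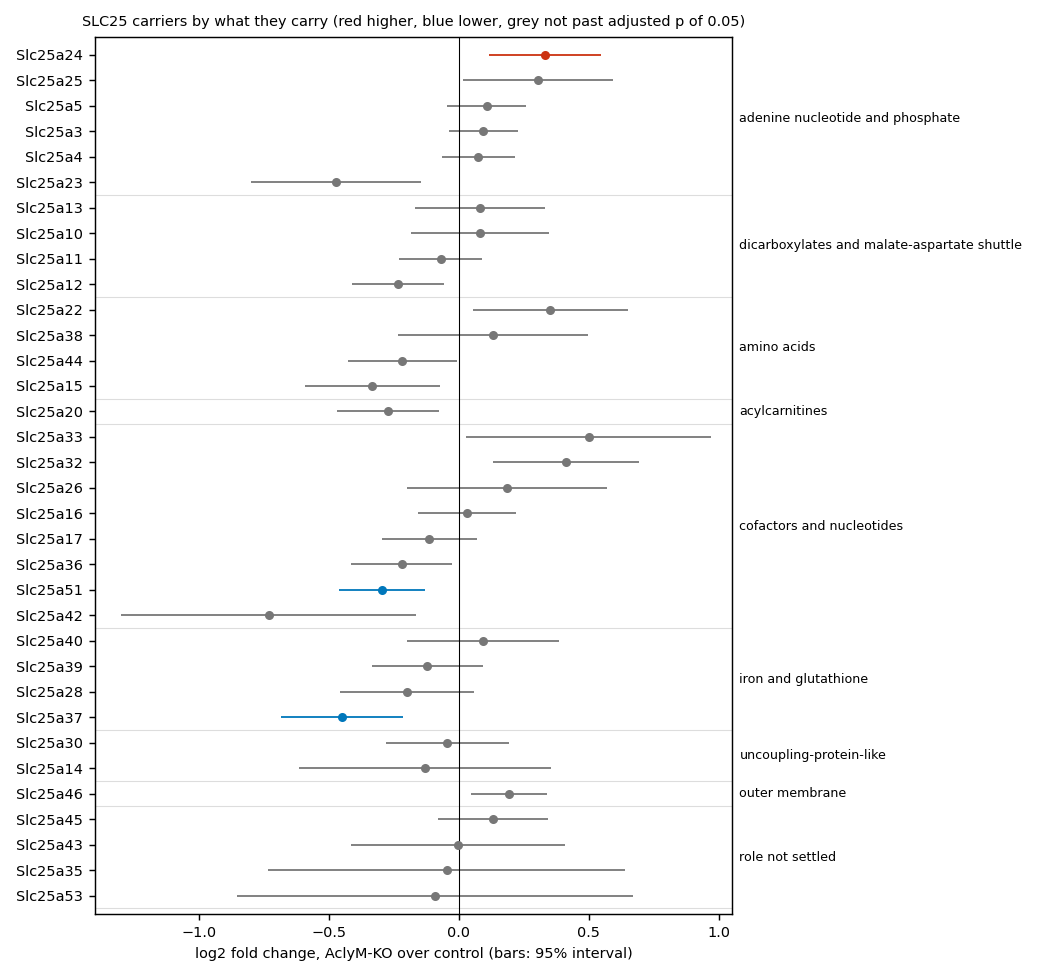
Log2 fold change of AclyM-KO over control for 34 of the 35 carriers (points) with its 95% confidence interval (bars), grouped by role, red for higher, blue for lower and grey for not past the adjusted p of 0.05. Slc25a24 at 0.33 is red and Slc25a37 at -0.45 and Slc25a51 at -0.30 are blue, while Slc25a42 lies lowest at -0.73 with an interval that passes -1.

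Closely related carriers were compared through the ratio of their RPKM in each library, as a description. Slc25a24 and Slc25a23 share 63.0% of coding nucleotides, and no stretch of 30 nucleotides is common to the coding sequences of any of the 10 pairs compared. The ratio of Slc25a24 to Slc25a23 was 4.46, 4.44 and 5.13 in control and 6.88, 12.2 and 6.15 in AclyM-KO libraries, where replicate 2 was again the highest. The ratio of Slc25a36 to Slc25a33 (62.9% identity) was 8.69, 8.95 and 7.06 against 5.77, 4.65 and 4.63. That of Slc25a13 to Slc25a12 (71.2%) was 1.75, 2.20 and 1.80 against 2.31, 2.63 and 2.20, a separation by a narrow margin.

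In these pairs the libraries of the genotypes did not overlap, and the same held for the mitoferrins Slc25a28 and Slc25a37 (66.7%), with 0.922, 1.14 and 1.13 in control and 1.21, 1.41 and 1.18 in AclyM-KO. It held too for Slc25a16 and Slc25a42 (54.0%), with 9.42, 9.29 and 13.5 against 16.6, 15.4 and 23.7. Each of these separate pairs holds a carrier whose own libraries did not overlap, so the ratios are not independent of those values. No share over other gene pairs was computed. The ADP/ATP carriers Slc25a5 and Slc25a4, the pair with the highest identity (77.4%), had overlapping ratios of 1.54 to 1.62 in control and 1.51 to 1.69 in AclyM-KO. Ratios also overlapped for Slc25a24 to Slc25a25, Slc25a39 to Slc25a40, Slc25a30 to Slc25a14 and Slc25a51 to Slc25a53.

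Promoter windows, from 250 bases before to 50 bases after the start site (RefSeq, GRCm38.p6), were at hand for 27 of the 35 carriers. Of the carriers past the threshold, the table holds Slc25a24. Its window is printed beside that of Slc25a1, a relative outside the set that also rose, to show 2 GC-rich promoters of differing motif content, with CCAAT boxes, E-boxes and GC boxes on either strand in capitals. The first lies at chr3:109122899-109123198 on the plus strand and the second at chr16:17928170-17928469 on the minus strand, and both read 5′ to 3′ in the sense of the gene.
Slc25a24: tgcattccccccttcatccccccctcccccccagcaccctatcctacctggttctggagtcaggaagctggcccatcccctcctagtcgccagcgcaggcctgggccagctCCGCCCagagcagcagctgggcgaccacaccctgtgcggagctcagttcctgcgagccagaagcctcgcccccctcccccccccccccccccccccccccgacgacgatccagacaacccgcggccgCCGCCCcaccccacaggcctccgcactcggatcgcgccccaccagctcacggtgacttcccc
Slc25a1: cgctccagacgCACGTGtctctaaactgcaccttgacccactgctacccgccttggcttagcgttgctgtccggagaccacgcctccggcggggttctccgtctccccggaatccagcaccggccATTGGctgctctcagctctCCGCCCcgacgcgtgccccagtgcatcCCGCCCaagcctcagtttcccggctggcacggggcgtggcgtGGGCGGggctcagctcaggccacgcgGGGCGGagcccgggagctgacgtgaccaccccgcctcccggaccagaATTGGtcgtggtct
The Slc25a24 window holds 72.3% G and C and 2 GC boxes, and the Slc25a1 window 69.3%, 4 GC boxes, 2 CCAAT boxes and 1 E-box.

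A total of 6 letter strings was searched on both strands of these windows, and none contains another. For each carrier the window nearest the start of its transcript was used. For the tested genes, carriers included, the first listed window was used, so the shares below are not from windows chosen alike. The GC box GGGCGG was present in 25 of the 27 carrier windows (92.6%) and in 65.2% of the 9189 windows of tested genes, at a median GC content of 60.7% and 61.0%. The CCAAT box (CCAAT) was in 44.4% against 39.2%, the E-box (CACGTG) in 14.8% against 10.7%, and the ETS core (CCGGAAG) in 22.2% against 19.9%. The NRF1 site was in 3.70% against 11.3%, and the sterol response element (TCACNCCAC) in 0 carrier windows against 1.04%. These are matches of letters and were not tested for binding.

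Genes around the carriers gave a mixed picture. Of 4 tested relatives outside the set, 2 rose. Slc25a1 went from 68.6 ± 1.12 to 96.5 ± 5.36 CPM (SD, n = 3; log2 fold change 0.49, adjusted p = 0.00156 in edgeR), and Mtch2, a relative in the outer membrane that inserts other proteins there, from 78.6 ± 3.27 to 98.5 ± 6.60 CPM (0.33, adjusted p = 0.0161). The uncoupling protein Ucp2 had a log2 fold change of -0.02 and Mtch1 of 0.12, and Ucp1 and Ucp3 had 0 counts in every library.

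Of 19 other inner membrane transporters, 1 was higher, Micu2, a regulator of the calcium uniporter (0.28, adjusted p = 0.0340), with a median of 0.13. In this list limma-voom called 4 higher and 1 lower. At an unadjusted p under 0.05, 6 were higher and 2 lower, beside 13.9% and 13.3% of all genes tested. Of 16 genes that import carrier proteins, 1 was lower, the outer membrane receptor Tomm20 (-0.30, adjusted p = 0.0186), with a median of 0.02. Of 18 genes of mitochondrial mass and biogenesis, 0 passed in edgeR, DESeq2 or limma-voom, with a median of 0.01. An unadjusted p under 0.05 was found for 4 of them, all higher, beside 13.9% of all genes tested that were higher at this p. All these medians stand beside 0.00 for all genes.

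The enzymes that work with the shuttle carriers moved in both directions, with 3 of 10 higher and 3 lower in edgeR, 2 and 2 in DESeq2, 4 and 3 in limma-voom and a median of 0.01. Acly, the gene deleted by design, is among the lower genes in each of these counts and is part of the median. Malic enzyme Me1, which turns malate into pyruvate in the cytosol, rose from 2.40 ± 0.320 to 6.25 ± 1.45 CPM (SD, n = 3), a log2 fold change of 1.40 (adjusted p = 0.00252). The malate dehydrogenases Mdh2 of the matrix (0.30, adjusted p = 0.0156) and Mdh1 of the cytosol (0.22, adjusted p = 0.0465) rose. The cytosolic aspartate aminotransferase Got1 (-0.35, adjusted p = 0.0197) and Gpd2, the mitochondrial enzyme of the glycerol phosphate shuttle (-0.31, adjusted p = 0.0465), fell, as did Acly itself (-1.25). Mdh1 and Gpd2 did not pass in DESeq2.

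**Figure D5:**
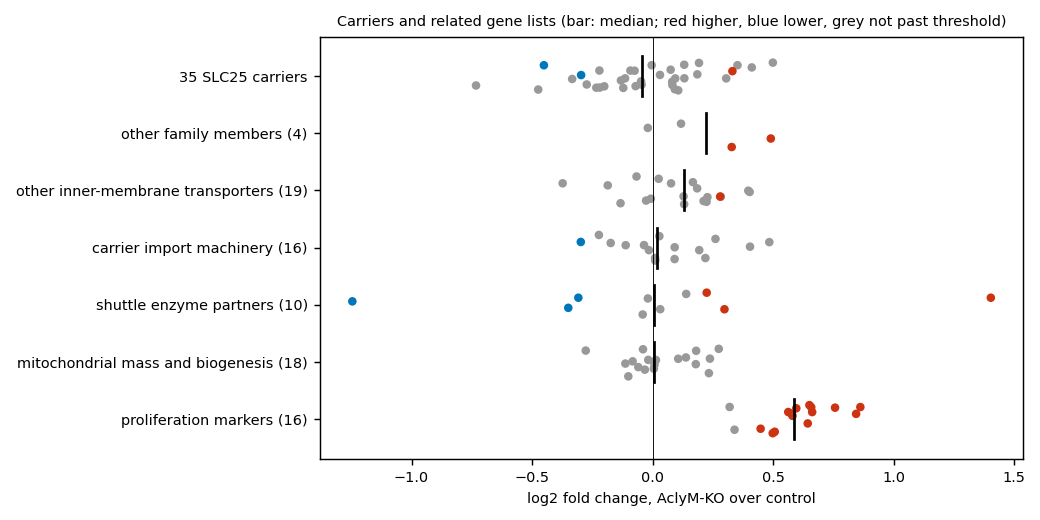
Log2 fold change of AclyM-KO over control for the 35 carriers and 6 related gene lists (number tested in brackets), 1 point per gene in red (higher), blue (lower) or grey (not past the threshold), with a black bar at each median. The carriers centre at -0.05 and the proliferation markers at 0.59.

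Most proliferation markers and some macrophage markers differed between the genotypes. Of 16 proliferation markers, 14 rose and 0 fell (median 0.59). Their summed CPM was 708 to 818 in control libraries and 977, 1381 and 1044 in AclyM-KO libraries, highest in replicate 2. In that library Slc25a24 was highest, and Slc25a37 and Slc25a51 were lowest. Of 8 macrophage markers, 3 fell in edgeR and DESeq2 (4 lower and 1 higher in limma-voom), namely Csf1r (-0.48), Mertk (-0.67) and Lyz2 (-1.05), the gene whose promoter drives Cre here, 5 did not pass in edgeR (log2 fold changes between -0.18 and 0.16), and the summed CPM of the markers without Lyz2 was 8624 to 8823 in control and 7050 to 8315 in AclyM-KO. The part of either in the changes of Slc25a24, Slc25a37 and Slc25a51 was not tested.

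Of 36 markers of other cell types, 5 passed the filter, 0 were past the threshold in edgeR, DESeq2 or limma-voom or had an unadjusted p under 0.05, and 8 had 0 counts in every library. The erythroid markers, which matter for mitoferrin-1 because red cell precursors depend on it, summed to 1.12 to 2.001 CPM in control and 0.680 to 2.44 CPM in AclyM-KO libraries, and Hba-a1 and Hbb-bs had 0 counts in every library.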

How the data were processed

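RNA of 3 control and 3 AclyM-KO BMDM samples was sequenced from strand-specific KAPA mRNA libraries. The authors aligned reads to mm10 with STAR 2.5.2b (base calls by CASAVA 1.8.2, per the labels), filtered on mapping quality and deposited raw HOMER2 counts per RefSeq transcript (default settings), without normalization or pooling. How the default treats strand, and the RefSeq release, are not described in the sources used here. Reads on shared exons can count in more than 1 transcript. Of 12 value columns, 6 belong to the samples here and the other 6 were not used. Of 35745 transcripts, the one with the highest total stood for each of 24562 genes, and 9 of the 35 carriers had several. Totals on this basis were 11120034 to 25814853.

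The quasi-likelihood test of edgeR 4.0.16 (R 4.3.3) was used with genotype alone in the model, after filterByExpr and TMM scaling, with Benjamini-Hochberg adjustment over 11470 genes and a threshold of 0.05. The biological coefficient of variation was 8.90%. RPKM was computed from TMM-scaled CPM and GENCODE M21 transcript lengths. Paralogs were aligned on coding nucleotides, since no protein table was at hand. The test was tried on simulated counts. Named are carriers past the threshold in any fit, the 5 highest by RPKM, those nearest the count limit, listed paralogs and, of related lists, genes past the threshold. Other carriers are named with a role and a value by role group. Results that need certain withheld items are left unnamed and stay in the counts. Members and lists were chosen with earlier results of these data known. Alternatives were RLE factors, total counts, other filters, DESeq2 1.42.0, limma-voom (limma 3.58.1), the replicate number as a block, leaving out each library, summed transcripts, thinning AclyM-KO replicate 2 to 11753905 counts and a threshold of 0.01.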

Additional observations from a re-analysis of the deposited data

How the results depend on the processing

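The counts of carriers past the threshold were small and moved with the setting. The number higher in AclyM-KO (1) was 0 with replicate 2 of AclyM-KO thinned, with transcripts summed and at a threshold of 0.01, 2 without a filter on low counts and with total counts only, and 3 with limma-voom, and leaving out single libraries gave 0 to 3. The number lower (2) was 7 with limma-voom and 0 at 0.01, and leaving out single libraries gave 0 to 4. With DESeq2, the package the study used, 1 carrier was higher and 3 were lower. Without AclyM-KO replicate 2, 3 carriers were higher and 4 lower, and without a control library at most 1 was higher and 0 were lower. Over all genes, 343 were higher and 214 lower at 0.01, against 768 and 648 at 0.05, and limma-voom gave 1110 higher and 1077 lower. Leaving out single libraries gave 363 to 1105 genes higher and 235 to 1031 lower. In the related lists, 10 genes were higher and 1 lower at 0.01, against 21 and 4, and leaving out single libraries gave 8 to 27 and 1 to 6. Acly, deleted by design, is among the lower genes in each of these counts. The median level of the carriers stayed between 8.71 and 9.33 RPKM. Fits with 5 libraries have fewer samples, and they gave both fewer and more genes past the threshold than the fit with all 6. The causes were not tested.

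With the replicate number as a block, 1 carrier was higher and 3 were lower, 22 and 4 genes of the lists and 862 and 721 of all genes. Same-numbered libraries correlated at 0.090, 0.114 and -0.047 in their deviations from the group means, so the numbers were not taken as pairs, and the block is only an alternative. Slc25a23 is the carrier that it added.

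Slc25a24 was past the threshold in 10, Slc25a37 in 12 and Slc25a51 in 11 of 15 alternatives, always in the same direction. Another 9 carriers passed in at least 1 (Slc25a12, Slc25a20, Slc25a22, Slc25a23, Slc25a32, Slc25a36, Slc25a42, Slc25a45 and Slc25a46), and 23 in none. The sign turned in some carriers with log2 fold changes near 0. Leaving out single libraries gave -0.026 to 0.223 for Slc25a10, -0.023 to 0.199 for Slc25a13, -0.0070 to 0.068 for Slc25a16, -0.133 to 0.015 for Slc25a30, -0.321 to 0.284 for Slc25a35, -0.037 to 0.164 for Slc25a40, -0.038 to 0.052 for Slc25a43 and -0.219 to 0.044 for Slc25a53. The value was 0.135 for Slc25a35 with limma-voom, 0.017 for Slc25a35 after thinning, 0.034 for Slc25a43 with total counts only and 0.082 for Slc25a53 with summed transcripts. Total counts only moved the median of all genes by 0.04 on the log2 scale. Carriers with under 100 counts in most libraries, such as Slc25a42, Slc25a35 and Slc25a53, have the widest intervals.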
